A study of Mus musculus with 9 samples.

Results

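Cytotoxic lymphocytes kill through granules that hold granzymes (serine proteases), the pore-forming protein perforin and the proteoglycan serglycin, or through death ligands such as Fas ligand. Regulatory T (Treg) cells, CD4 T cells that depend on the transcription factor Foxp3, can use the same machinery, and granzyme B and perforin are known as one of their routes of suppression. The genes described here are 9: the granzyme genes Gzma, Gzmb and Gzmk, the perforin gene Prf1, the granule genes Srgn (serglycin) and Nkg7 (a granule membrane protein needed for degranulation), the chemokine gene Ccl5, the death ligand gene Fasl, and Klrd1, which encodes the CD94 chain of NK cell receptors. A probe set belonged to a member where its only annotated gene symbol was exactly that of the member. Each of the 9 had 1 such probe set, out of 22180 genes with values.

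Transcripts were measured on 1 Affymetrix array per sample in sorted CD4+YFP+ Treg cells, 4 samples without the Hippo pathway kinases Mst1 and Mst2 and 5 wild-type samples, all of strain C57BL/6. The Mst1/Mst2-null cells came from Foxp3YFP-Cre mice with both alleles of Stk4 (Mst1) and Stk3 (Mst2) flanked by loxP sites, and the wild-type cells from mice with Foxp3YFP-Cre alone, so both groups carry the YFP and Cre insert, and the Foxp3 locus drives the Cre. All cells were CD45.2+ and developed in RAG1-/- hosts that had received, 2 months before the sort, bone marrow of one of these genotypes mixed in equal parts with CD45.1 wild-type marrow. Ages are not given in the labels, nor is it said whether each sample of a group is a separate chimera. The spread behind every p-value is therefore that between these samples and may be technical.

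Values are log2 RMA values as the authors deposited them, and each difference is Mst1/Mst2-null minus wild type. A gene was called where limma's adjusted p (Benjamini-Hochberg over all 22180 genes) was under 0.05. Of all genes, 1.89% were called lower and 0.428% higher in null cells, 2.32% together. After quantile normalisation of the gene values the higher calls were 35.7% of the calls, against 18.4% without it. In 4.4% of all genes every null value lay below every wild-type value. The median of all probe sets over the 9 arrays, 4.04, is used below as a mark of dim signal, since detection calls were not among the values used. Null arrays were less alike (mean correlation with the rest of their group from 0.9866 to 0.9888) than wild-type arrays (from 0.9928 to 0.9936), and null arrays 2 and 4 lay at opposite ends of the second principal component (-14.274 and 14.862).

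The 6 Treg cell markers listed all lay above the median of all probe sets in both genotypes, but 2 were called lower and 0 higher in null cells by limma (3 lower and 0 higher at an unadjusted p under 0.05). Over all genes, 9.8% were lower and 5.06% higher at that unadjusted limma p. Foxp3 averaged 10.72 in null and 10.70 in wild-type samples and did not pass. Ikzf2 (Helios), a transcription factor of Treg cells, was 9.38, 9.24, 9.73 and 8.90 in null samples, against 9.85, 10.07, 9.92, 10.10 and 10.23 in wild-type samples (difference -0.72, limma adjusted p = 0.033). Its relative Ikzf4 (Eos) was 7.18, 7.32, 7.15 and 6.80 in null samples, against 7.89, 7.77, 7.76, 7.60 and 7.66 in wild-type samples (difference -0.62, limma adjusted p = 0.0145). The groups did not overlap for either. Ikzf4 passed in all 20 alternatives and Ikzf2 in 11, and of the 9 fits that left out 1 array Ikzf2 passed in those without null array 3 or null array 4 (limma adjusted p up to 0.0908 over the 9). Il2ra and Ctla4 had differences of 0.056 and -0.088, and Tnfrsf18 (GITR) one of -0.28 (limma adjusted p = 0.26). The defining NK cell gene Ncr1 lay between 3.02 and 3.09 in null and between 2.94 and 3.16 in wild-type samples, below the median of all probe sets in each. Of the 9 NK cell markers listed, 5 had a mean below that median and 4 above it. The CD8 chain gene Cd8a averaged 4.58 and 4.46, and Cd8b1 7.03 and 6.47, in null and wild-type samples. Neither passed, and the Cd8b1 difference of 0.55 had an unadjusted limma p of 0.00726 (limma adjusted p = 0.133). The CD3 chain genes Cd3e, Cd3d and Cd3g were lower in every null array than in every wild-type array, without passing the test. Their differences of means were -0.31, -0.15 and -0.32. Cd4 had a difference of -0.18 with overlapping groups and did not pass either. In RNA from whole samples, fewer cells that express a gene and less RNA per cell cannot be told apart.

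Both granule structure genes were lower in null Treg cells: Nkg7 2.23-fold and Srgn 1.59-fold, each with the groups apart. Gzmb and Ccl5 had null means 2.06-fold and 2.81-fold below wild type, but neither passed the test, with null arrays that differed widely among themselves. Prf1, Gzma, Gzmk, Fasl and Klrd1 did not pass either. Of the 9 members, 2 were called lower and 0 higher, where 1.89% and 0.428% of all genes were called. With dim genes left out, 2 of 7 members were lower and 0 higher, where 571 and 134 of 11350 genes were. The members were chosen with earlier results of these data known, so such shares are a description. At an unadjusted limma p under 0.05, 4 members were lower and 1 higher, where 9.8% and 5.06% of all genes were. The median difference of the members was -0.19, beside 0.0023 over all genes.

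**Figure D1:**
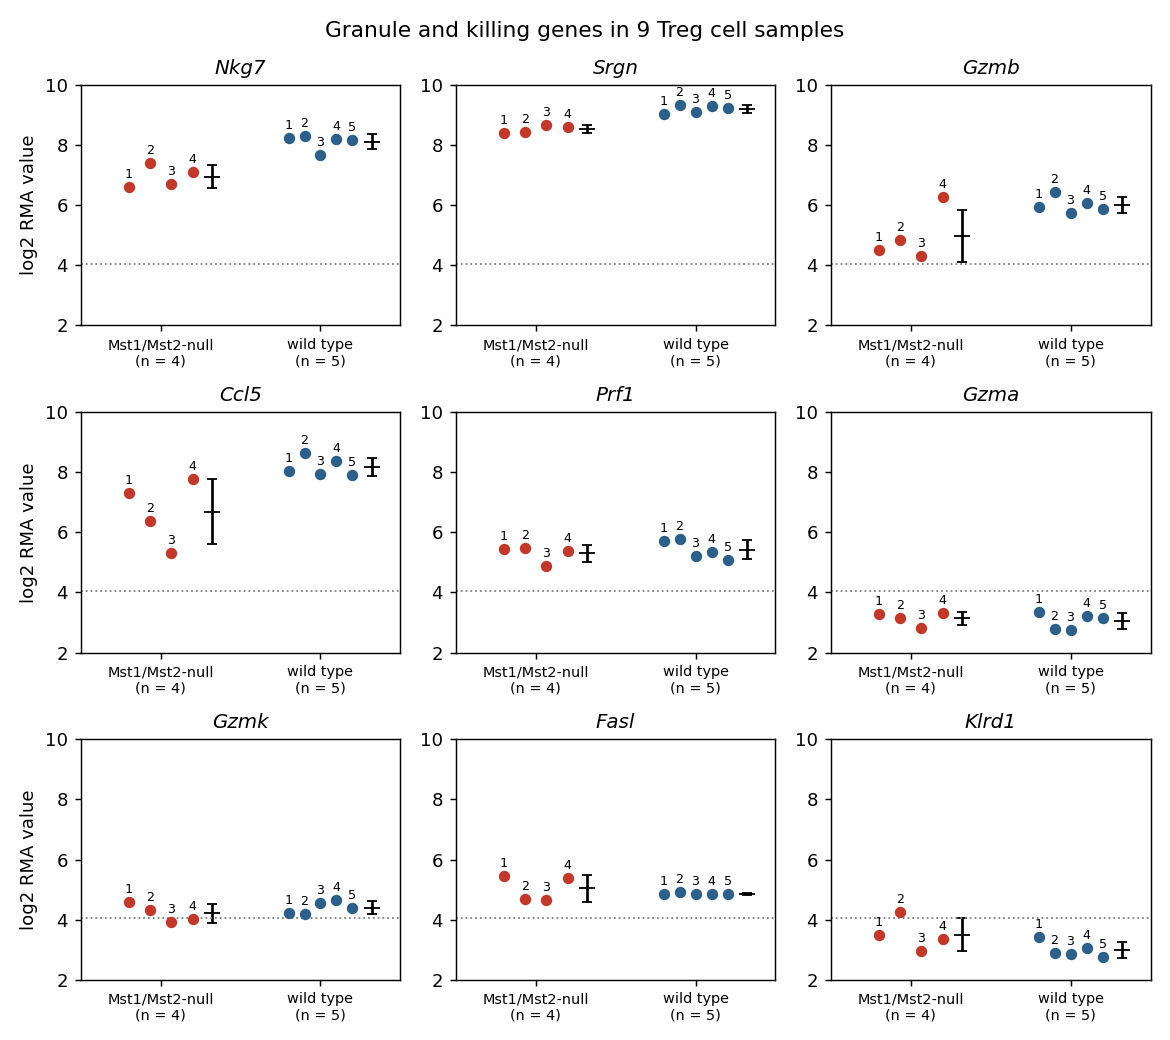
Log2 RMA values (vertical axis) of the 9 members in 4 Mst1/Mst2-null (red, left) and 5 wild-type (blue, right) samples. Points are arrays labelled by replicate number, black bars give mean and SD, and the dotted line is the median of all probe sets (4.04). Nkg7, Srgn and Ccl5 do not overlap between genotypes, and the Gzmb value of null array 4 (6.26) lies inside the wild-type range.

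Sequences upstream of the start are given for Nkg7 and Srgn, the members that fell, for Gzmb, which differed among null arrays, and for Prf1, which did not pass. They are the 250 bases before the start of the gene, from RefSeq on GRCm38.p6, on the strand of the gene. The table used matched 7 of the 9 members, and Ccl5 and Klrd1 were not among them. Capitals mark matches on either strand to 5 short motifs: TGTGGT (RUNX), TGANTCA (AP-1), GGTGTGA (T-box), TTCNNNGAA (STAT) and TGACGTCA (cyclic AMP response element).
Nkg7, chr7:43436888-43437137, plus strand: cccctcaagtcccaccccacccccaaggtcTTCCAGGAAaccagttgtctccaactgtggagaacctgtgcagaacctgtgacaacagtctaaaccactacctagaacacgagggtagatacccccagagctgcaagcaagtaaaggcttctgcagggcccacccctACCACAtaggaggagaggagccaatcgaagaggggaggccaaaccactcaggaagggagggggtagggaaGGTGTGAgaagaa
Srgn, chr10:62527446-62527695, minus strand: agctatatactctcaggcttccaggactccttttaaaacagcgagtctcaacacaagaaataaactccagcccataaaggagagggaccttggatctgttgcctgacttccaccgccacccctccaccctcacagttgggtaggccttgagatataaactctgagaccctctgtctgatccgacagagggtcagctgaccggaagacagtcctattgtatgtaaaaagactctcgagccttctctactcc
Gzmb, chr14:56262335-56262584, minus strand: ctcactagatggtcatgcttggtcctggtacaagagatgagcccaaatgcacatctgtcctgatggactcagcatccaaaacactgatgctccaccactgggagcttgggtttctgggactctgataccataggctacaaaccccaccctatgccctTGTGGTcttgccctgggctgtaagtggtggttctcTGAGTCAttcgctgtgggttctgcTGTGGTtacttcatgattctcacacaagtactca
Prf1, chr10:61297586-61297835, plus strand: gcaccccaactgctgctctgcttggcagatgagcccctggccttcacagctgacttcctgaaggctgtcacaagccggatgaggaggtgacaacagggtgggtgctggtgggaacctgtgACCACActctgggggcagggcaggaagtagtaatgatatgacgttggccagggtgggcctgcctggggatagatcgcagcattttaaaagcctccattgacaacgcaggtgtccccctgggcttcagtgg
The Nkg7 window held 1 match each to the STAT, RUNX and T-box motifs, the T-box match beginning 13 bases before the start, and it was the 1 window among the members with a STAT match. The Gzmb window held 2 RUNX matches and, between them, 1 AP-1 match, and the Prf1 window 1 RUNX match. The Srgn window shown held 0 matches. A second listed start of Srgn, further along the gene, had 1 RUNX match in its window. Among the 32851 windows of the same length over all genes, 14% held the RUNX motif, 7.02% the STAT motif, 6.75% the AP-1 motif, 3.33% the T-box motif and 1.55% the cyclic AMP motif. Such matches describe the letters only. Beside these windows, Gzma and Gzmk lie near each other on chromosome 13, within 5 genes with values. No gene among the 5 nearest with values on either side of any member was called, and no member lies on the chromosomes of Stk4 (2), Stk3 (15) or Foxp3 (X).

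Nkg7 had values of 6.59, 7.41, 6.70 and 7.10 in the 4 null samples and of 8.23, 8.31, 7.66, 8.19 and 8.16 in the 5 wild-type samples. Every null value lay below every wild-type value. The means were 6.95 ± 0.38 (SD, n = 4) in null and 8.11 ± 0.26 (SD, n = 5) in wild-type cells, a difference of -1.16 ± 0.18 (SE, 95% interval from -1.56 to -0.76, limma adjusted p = 0.01). Nkg7 was the member with the larger fold of the 2 that passed. It passed under each of the 20 alternative settings and left-out arrays tried, with differences from -1.47 to -1.04.

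Srgn, whose protein core carries the sulphated sugar chains that hold granzymes and perforin in the granule, had values of 8.40, 8.43, 8.68 and 8.61 in null samples, against 9.03, 9.34, 9.10, 9.30 and 9.23 in wild-type samples. The groups did not overlap, and its null arrays were as tight as its wild-type arrays. The difference was -0.67 ± 0.088 (SE, 95% interval from -0.87 to -0.48, limma adjusted p = 0.00455), between 8.53 ± 0.14 (SD, n = 4) and 9.20 ± 0.13 (SD, n = 5). Srgn passed in all 20 alternatives too (limma adjusted p from 0.00298 to 0.0469).

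**Figure D2:**
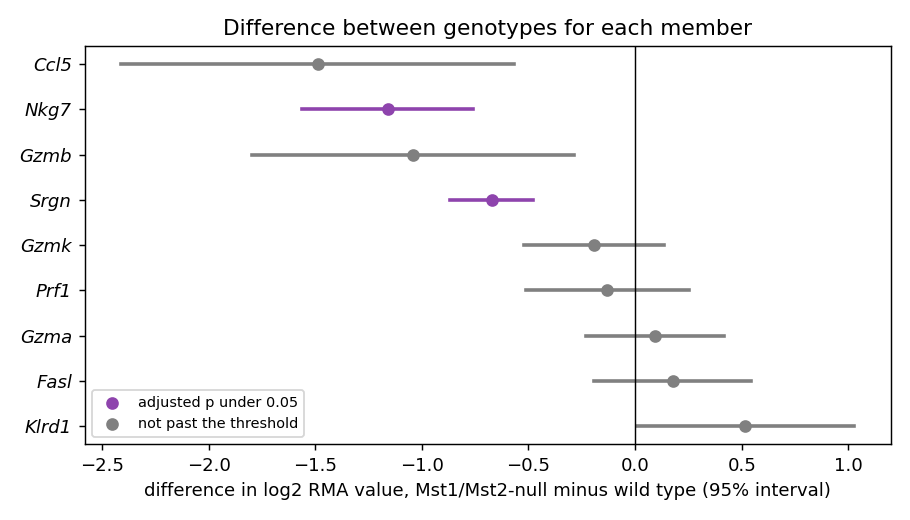
Difference in log2 RMA value, Mst1/Mst2-null (n = 4) minus wild type (n = 5), for each member (horizontal axis), with limma's 95% interval as a line; purple marks an adjusted p under 0.05. Nkg7 (-1.16) and Srgn (-0.67) are purple, and the widest interval is that of Ccl5, from -2.41 to -0.57.

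Granzyme B, a protease that activates caspases in a target cell, showed null arrays of 2 kinds at the level of its transcript. Gzmb was 4.51, 4.83 and 4.32 in null arrays 1, 2 and 3 and 6.26 in null array 4, against 5.93, 6.45, 5.75, 6.08 and 5.88 in wild-type samples. The first 3 lay below every wild-type value and the fourth inside their range. The means, 4.98 ± 0.88 (SD, n = 4) and 6.02 ± 0.27 (SD, n = 5) in null and wild-type cells, differed by -1.04 ± 0.34 (SE, 95% interval from -1.80 to -0.28), which did not pass (limma adjusted p = 0.166). Without null array 4 the difference was -1.47 (limma adjusted p = 0.00299), the call being then made on 3 null arrays.

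Ccl5 encodes a chemokine that killer T cells store and release on activation. It was 7.30, 6.38, 5.31 and 7.76 in null samples and 8.06, 8.63, 7.93, 8.37 and 7.90 in wild-type samples. No null value reached the lowest wild-type value, yet the null arrays spanned 2.45 log2 units and the wild-type arrays 0.73. The difference of -1.49 ± 0.42 (SE, 95% interval from -2.41 to -0.57) between 6.69 ± 1.08 (SD, n = 4) and 8.18 ± 0.31 (SD, n = 5) did not pass (limma adjusted p = 0.107). Null array 4 was again the highest of its group, and without it Ccl5 passed with a difference of -1.85 (limma adjusted p = 0.0377). Without null array 3, the lowest, the difference was -1.03 (limma adjusted p = 0.144).

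Null array 4 thus stood with wild type for Gzmb and nearest to it for Ccl5, and apart from it for Nkg7 (7.10) and Srgn (8.61). Markers of Treg and of other cells differed in the same array. Its mean over the 6 Treg cell markers was 8.99, against 9.15 to 9.23 in the other null arrays and 9.36 to 9.46 in wild-type arrays. Of these markers, Foxp3 (10.59), Ikzf2 (8.90), Ikzf4 (6.80) and Tnfrsf18 (8.51) were the lowest of all arrays there. Ctla4 (9.35) was the highest of all arrays, and Il2ra (9.78) lay inside the wild-type range. The mean of null array 4 over 8 myeloid markers was 5.80, against 4.27 to 4.84 in the other null arrays and 4.17 to 5.05 in wild-type arrays. These markers were not uniform there. S100a8 (8.90), S100a9 (8.41), Lyz2 (7.36) and Cd14 (3.60) were the highest of all arrays. Csf1r (4.44), Cd68 (6.22) and Adgre1 (4.10) lay above every wild-type value but below at least 1 other null value. Itgam (3.35) lay inside the wild-type range and was the lowest null value. The mean of null array 4 over 5 B cell markers was 5.87, against 4.94 to 5.36 in the other null arrays and 4.77 to 5.64 in wild-type arrays. Its mean over 9 NK cell markers was 4.33, against 3.98 to 4.19 in the other null arrays and 3.93 to 4.07 in wild-type arrays. None of the 8 myeloid, 5 B cell and 9 NK cell markers was called between genotypes by limma. At an unadjusted limma p under 0.05, 1 myeloid, 1 B cell and 2 NK cell markers were higher in null samples and 0 lower. Over all genes, 5.06% were higher and 9.8% lower at that p. Differences lay above 0 for 7 of the 8 myeloid, all 5 B cell and 6 of the 9 NK cell markers. The part of these cells in the Gzmb and Ccl5 values was not tested. Of the NK cell markers, Ncr1, Klrb1c and Klre1 were 3.03, 3.25 and 2.55 in null array 4, below the median of all probe sets. They lay inside the range of the wild-type arrays, as did Klri2 (2.70) and Eomes (3.86). In the same array Tyrobp (7.85), Fcer1g (5.79), Cd244a (4.68) and Itga2 (5.25) lay above every wild-type value.

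**Figure D3:**
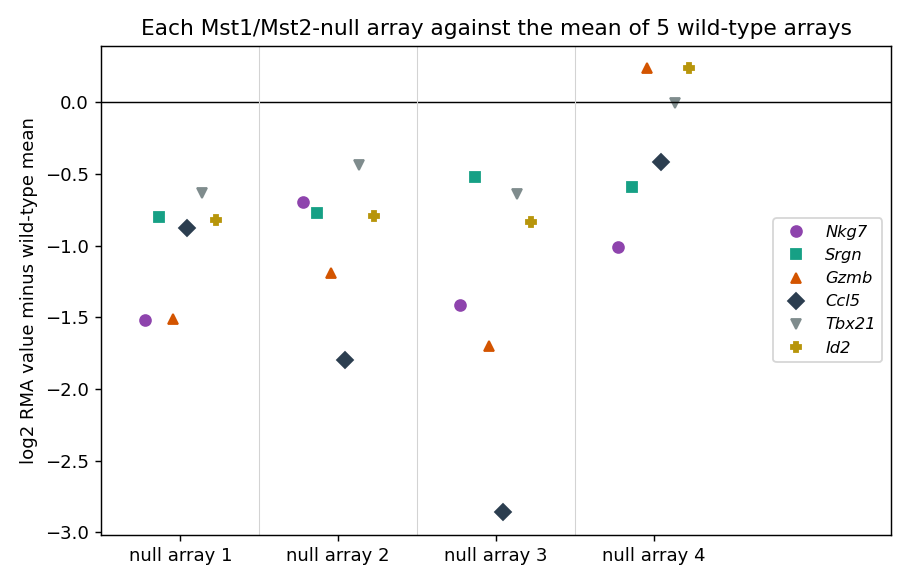
Log2 RMA value minus the mean of the 5 wild-type arrays (vertical axis) in each of the 4 Mst1/Mst2-null arrays, for Nkg7, Srgn, Gzmb and Ccl5 and for the transcription factor genes Tbx21 and Id2. Nkg7 and Srgn lie below 0 in all 4 arrays, while Gzmb (0.24) and Id2 lie above 0 in null array 4.

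Perforin makes the pores through which granzymes enter a target. Prf1 was 5.45, 5.49, 4.88 and 5.37 in null samples and 5.71, 5.78, 5.23, 5.34 and 5.07 in wild-type samples, and the groups overlapped. Its difference of -0.13 had a 95% interval from -0.51 to 0.25 (limma adjusted p = 0.798). A second probe set, near 11.8 in both genotypes, listed Prf1 together with the mitochondrial gene symbol COX2 and was not read as Prf1.

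The tryptase-type granzymes lay below that median or close above it. Gzma, abundant in NK cells, lay between 2.83 and 3.32 in null and between 2.75 and 3.35 in wild-type samples, below the median of all probe sets in each sample (difference 0.094, 95% interval from -0.23 to 0.42). Gzmk was 4.59, 4.31, 3.92 and 4.01 in null and 4.23, 4.18, 4.55, 4.66 and 4.39 in wild-type samples, with 2 null values below all of wild type (difference -0.19, 95% interval from -0.52 to 0.14, limma adjusted p = 0.615). Signal so close to or under that median may be background, so a change in either could be missed.

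Fasl, which triggers death through the receptor Fas, was 5.46, 4.68, 4.64 and 5.38 in null samples, against 4.85, 4.91, 4.86, 4.84 and 4.85 in wild-type samples. Null arrays 1 and 4 lay above every wild-type value and null arrays 2 and 3 below, so the mean difference of 0.18 (95% interval from -0.19 to 0.55, limma adjusted p = 0.692) describes no single array. Klrd1 was 3.50, 4.24, 2.94 and 3.34 in null and 3.41, 2.90, 2.84, 3.04 and 2.75 in wild-type samples. Its difference of 0.52 (95% interval from 0.0081 to 1.03) did not pass (limma adjusted p = 0.326), and the value of null array 2 was the 1 above the median of all probe sets. Klrc1, which encodes the NKG2A partner of CD94, averaged 3.19 in null and 3.33 in wild-type samples, dim in both.

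The spread of the members was wider in null than in wild-type samples for 7 of 9, as it was for 58.9% of all genes. The ratio of the SD in null to that in wild-type samples was 16.4 for Fasl, whose wild-type arrays spanned 0.068 log2 units, 3.46 for Ccl5, 3.28 for Gzmb, 2.10 for Klrd1, 1.502 for Gzmk, 1.48 for Nkg7, 1.07 for Srgn, 0.914 for Prf1 and 0.815 for Gzma, beside a median of 1.2 over all genes.

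Around the 9 members, 72 companion genes of the killing pathway with values were read by role, out of 79 listed. In null cells 8 were called lower (11.1%, where 1.89% of all genes were) and 0 higher by limma, and the median difference of the 72 was -0.11. With dim genes left out, 9 of 52 companions were lower and 1 higher, where 571 and 134 of 11350 genes were. The companion list was chosen with earlier results of these data known, so its shares describe these genes and do not test the pathway. The count of companions called lower was 3 without wild-type array 2 or 4, 5 without wild-type array 3 or 5 or null array 1 or 2, and 6 or 8 without any other single array. At an unadjusted limma p under 0.05, 24 of the 72 companions were lower and 5 higher, where 9.8% and 5.06% of all genes were. In 11 every null value lay below every wild-type value (15.3%, where 4.4% of all genes did so). The genes that fell were Stx11, Lamp2, Rab27a, Cst7, Sh2d1a, Bid, Xylt1 and Chsy1.

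Among 12 genes of granule biogenesis, transport and exocytosis, 3 fell (25%, where 1.89% of all genes were called lower) and 0 rose. Stx11, a syntaxin whose loss in humans causes a failure of killer cell degranulation, was 5.06, 5.27, 5.94 and 5.53 in null samples, against 6.19, 6.58, 6.20, 6.55 and 6.15 in wild-type samples (difference -0.89, limma adjusted p = 0.0255). Lamp2, a glycoprotein of lysosome and granule membranes, fell 1.60-fold and Rab27a, the small GTPase that docks granules at the membrane, 1.29-fold (limma adjusted p = 0.0249 for each). The groups did not overlap for these 3 or for Vamp7 and Vamp8, vesicle fusion proteins that did not pass (differences -0.44 and -0.33). Every null value lay below every wild-type value in 41.7% of the 12 genes, where this held for 4.4% of all genes. Lyst, Ap3b1 and Unc13d, further genes whose loss disturbs killing, had differences of -0.035, -0.11 and 0.025. The CD107a gene Lamp1 averaged 7.96 in null and 8.24 in wild-type samples (limma adjusted p = 0.198). Each of these 3 calls was lost when some single arrays were left out. Stx11 lost its call without null array 1 or 2 or without wild-type array 1, 2, 3 or 4 (limma adjusted p up to 0.0721). Lamp2 lost it without null array 1 or 3 or without wild-type array 2, 4 or 5 (up to 0.0748), and Rab27a without null array 1 or 4 or without wild-type array 2, 3 or 4 (up to 0.0699).

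Of 8 genes for granzyme processing and protease inhibition, Cst7 fell (12.5%, where 1.89% of all genes were called lower). It encodes cystatin F, an inhibitor of the cathepsins that activate granzymes, and was 7.21, 7.03, 6.77 and 7.27 in null samples and 8.82, 8.99, 8.77, 9.08 and 8.84 in wild-type samples (difference -1.83, limma adjusted p = 4.46e-05). Ctsc, the cathepsin that removes the propeptide of granzymes, averaged 6.92 in null and 7.16 in wild-type samples and did not pass (limma adjusted p = 0.181). Serpinb9, the inhibitor that shields a killer cell from its own granzyme B, had a difference of -0.13 (95% interval from -0.30 to 0.039).

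The enzymes that build sugar chains on serglycin and other proteoglycans included 2 falls among 8 genes (25%, where 1.89% of all genes were called lower). Xylt1, the xylosyltransferase that starts the chains, was 5.81, 5.67, 5.69 and 5.77 in null samples, against 6.37, 6.20, 6.54, 6.50 and 6.46 in wild-type samples (difference -0.67, limma adjusted p = 0.0025). Its paralog Xylt2 had a difference of 0.049 and overlapping groups. Chsy1, a chondroitin synthase, averaged 6.76 in null and 7.14 in wild-type samples (limma adjusted p = 0.0446, between 0.0342 and 0.111 when 1 array was left out, past the threshold only without wild-type array 3 and without null array 1).

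**Figure D4:**
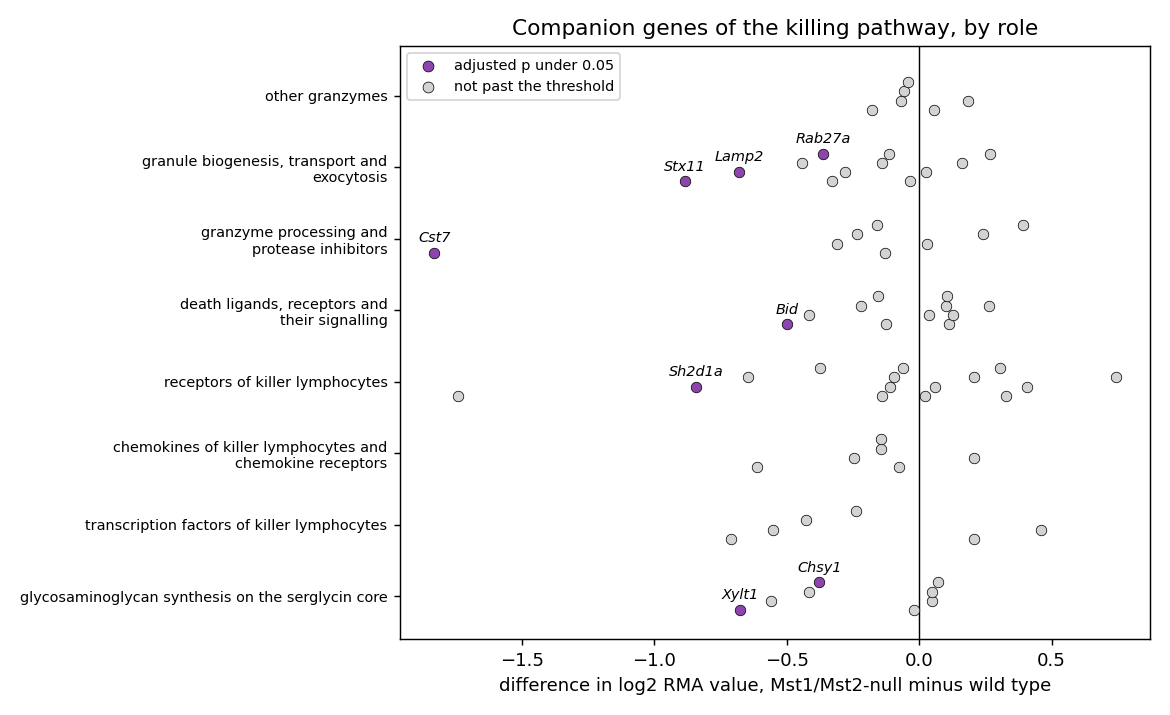
Difference in log2 RMA value, Mst1/Mst2-null (n = 4) minus wild type (n = 5), of 72 companion genes (points, horizontal axis) in 8 role groups; purple points have an adjusted p under 0.05 and carry their names. All 8 purple points lie left of 0, from Cst7 (-1.83) to Rab27a (-0.36).

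Among receptors of killer lymphocytes, 1 of 15 fell (6.67%, where 1.89% of all genes were called lower). This was Sh2d1a, the adaptor SAP that links SLAM family receptors to kinases, with 6.92, 7.13, 7.11 and 7.05 in null samples and 7.75, 8.0, 7.77, 8.06 and 7.89 in wild-type samples (difference -0.84, limma adjusted p = 0.000941). Klrg1, a receptor of effector lymphocytes named after its values were seen, was 3.70, 3.93, 4.20 and 5.25 in null samples and 6.18, 7.09, 6.53, 5.28 and 4.99 in wild-type samples, with the highest null value again in null array 4. Its difference of -1.74 did not pass (limma adjusted p = 0.0779). Without null array 4, its highest null value, Klrg1 passed with a difference of -2.07 (limma adjusted p = 0.0418), on fewer null arrays. Hcst (DAP10) and Cd226, named for their mean values, had differences of -0.062 and 0.30 and did not pass. Tyrobp (DAP12), the adaptor of NK and myeloid cells, averaged 7.16 in null and 6.42 in wild-type samples and did not pass (limma adjusted p = 0.184).

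Of 11 genes of death ligands, receptors and their signalling, 1 fell (9.09%, where 1.89% of all genes were called lower). This was Bid, whose protein caspase-8 cleaves. It averaged 4.96 in null and 5.46 in wild-type samples (difference -0.50, limma adjusted p = 0.0438). That call held in 2 of the 9 fits that left out 1 array, those without wild-type array 1 and without null array 3 (limma adjusted p from 0.0395 to 0.114 over the 9). Casp8 and Cflar, the initiator caspase and its inhibitor, had differences of 0.13 and 0.10 and did not pass. The other granzymes numbered 6 with values, of which 0 were called, and Gzmm was the 1 with a mean above the median of all probe sets (4.66 in null and 4.71 in wild-type samples). Chemokines of killer cells and chemokine receptors had 0 calls among 6 genes. In that list Xcl1 averaged 5.67 in null and 6.29 in wild-type samples (difference -0.61, limma adjusted p = 0.238), and Ccl4 had a difference of -0.14.

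No transcription factor of killer lymphocytes passed among 6 with values when all arrays were used. At an unadjusted limma p under 0.05, 4 were lower and 1 higher, where 9.8% and 5.06% of all genes were. Id2, a regulator of effector and innate lymphocytes, was 6.34, 6.37, 6.32 and 7.39 in null samples, against 7.07, 7.63, 7.03, 7.10 and 6.95 in wild-type samples. Tbx21, which encodes the T-box factor T-bet, was 4.94, 5.13, 4.93 and 5.56 in null samples and 5.49, 5.63, 5.56, 5.69 and 5.47 in wild-type samples. In both genes null arrays 1, 2 and 3 lay below every wild-type value and null array 4 within their range, the same arrangement as for Gzmb. Their differences were -0.55 for Id2 and -0.43 for Tbx21 (limma adjusted p = 0.28 and 0.121). Without null array 4, which held the highest null value of both, both passed. Differences were then -0.81 for Id2 (limma adjusted p = 0.0189) and -0.57 for Tbx21 (limma adjusted p = 0.00794), on 3 null arrays. This was the only 1 of the 9 fits without 1 array in which they passed (limma adjusted p up to 0.474 for Id2 and 0.257 for Tbx21). Both also passed without null arrays 2 and 4. Klf2, a factor of quiescent T cells, was higher in every null array than in every wild-type array (difference 0.46, limma adjusted p = 0.0589), and passed without wild-type array 3 (limma adjusted p = 0.0395).

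Genes with the most similar pattern were sought among 10380 others with a mean above the median of all probe sets, leaving out predicted gene models, microRNA genes, gene segments of antigen receptors, Xist and genes of the Y chromosome, by Pearson's r over the 9 samples. These values describe a likeness that includes the difference between genotypes. For Gzmb they were Tbx21 (r = 0.971), Id2 (r = 0.967) and Psen2 (r = 0.966). For Nkg7 they were Mfsd14a (r = 0.98), Snw1 (r = 0.979) and Slc39a4 (r = 0.978), each of which fell in null cells. The call of Mfsd14a held in 1 of the 9 fits that left out 1 array, that without null array 2 (limma adjusted p up to 0.107), and that of Slc39a4 in 8, all but that without null array 1 (limma adjusted p = 0.0554). Those nearest to Ccl5 were Cyb5r3 (r = 0.97), Haspin (r = 0.966) and Vps72 (r = 0.959), of which Haspin fell. The call of Haspin held in 1 of those 9 fits, that without null array 4 (limma adjusted p up to 0.129). The 3 members shared none of these neighbours, and the other members varied too little over the 9 samples or were too dim for such a ranking.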

How the data were processed

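RNA of sorted Treg cells (between 1 and 20 ng, per the labels' protocols) was amplified with NuGEN kits and hybridised to 1 array per sample. The log2 values were deposited by the authors as RMA output of Affymetrix Expression Console, version 1.1, as named in the submitters' processing notes. The RMA steps are a background correction, quantile equalisation of arrays and a summary over probes. For the genome build the sources used here name none. The table held 41345 probe sets, of which 23521 named 1 gene in the platform annotation, 1814 several and 16010 none, and those with 1 symbol were used. The probe set with the highest mean stood for a gene. The number of arrays limits the precision.

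Null and wild-type samples were compared with limma 3.58.1 (lmFit, eBayes, R 4.3.3) over 22180 genes, two-sided, with no filter on dim genes. A simulation gave each gene its own mean, the same spread in both genotypes and independent noise. There limma found 50% of the genes shifted by 0.5 log2 units, 95% at a shift of 1 and 100% at a shift of 2. Of its 181 calls there, 11 were false. A wider spread in null samples, as for Gzmb (SD ratio 3.28) and Ccl5 (3.46), was not simulated, so these rates do not apply to such genes. The members, the companion and marker lists, the tests and the alternatives were chosen with earlier results of these data known. Named were all members, companions past the threshold, the 2 with the highest mean per role, for each marker list the extremes of the means and those past the threshold, and, for members above the median with an SD of at least 0.5, the 3 genes with the highest Pearson r. Not all of these are described. Il2ra, Ctla4, Tnfrsf18, Cd3d, Cd3g, Ncr1, Klrb1c, Klri2, Eomes, Fcer1g, Cd244a, Itga2, Vamp7, Lyst, Ap3b1, Unc13d, Serpinb9, Xylt2, Klrc1, Klrg1, Prdm1 and Slamf7 lie outside that rule and were named with their values in view. The same holds for S100a8, S100a9, Lyz2, Csf1r, Adgre1 and Itgam. Listed symbols without a row were looked up through RefSeq synonyms, which placed Cd244 as Cd244a, and 7 listed symbols were not analysed here. As alternatives, dim genes were left out, probe sets were averaged or kept apart, and the replicate number entered as a block. Further ones were median centring, quantile normalisation, eBayes with trend or robust, array weights, the level of Hspa1a and Hspa1b as a covariate, leaving out null arrays 2 and 4 together, and leaving out each array. Python 3.11.15 (pandas 2.3.3, numpy 2.4.6, matplotlib 3.10.9) served for tables and plots.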

Additional observations from a re-analysis of the deposited data

Results flagged for a closer look

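Among 58 named genes, each group of samples was searched for 1 array far from the rest (Dixon's test at 95%). Of 116 groups, 7 were marked, where chance marks about 1 in 20. Of the members, Nkg7 was low in wild-type array 3 (7.66, the other wild-type arrays from 8.16 to 8.31), still above the highest null value, and Fasl was high in wild-type array 2 (4.91, the others from 4.84 to 4.86). Id2 was high in null array 4 (7.39, the other null arrays from 6.32 to 6.37) and in wild-type array 2 (7.63, the others from 6.95 to 7.10). Cd14 was high in null array 4 (3.60, the other null arrays from 2.99 to 3.03), Ccl4 high in wild-type array 2 (5.92, the others from 5.55 to 5.60) and Sox13 low in wild-type array 1 (4.67, the others from 5.02 to 5.10).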

How the results depend on the processing

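Nkg7 and Srgn were called lower under all 20 alternatives. The count of members called lower was 2 in each alternative except without null array 4 (4) and without null arrays 2 and 4 (3), and from 2 to 4 over the fits that left out 1 array. The difference of Prf1, which was not called, changed sign only without null array 3, and lay from -0.22 to 0.0094 over the fits that left out 1 array. Companions called lower were 4 with the replicate block, 5 after quantile normalisation and 3 to 8 when 1 array was left out. Companions called higher were 1 with dim genes left out, 1 after quantile normalisation (Klf2 in both) and 0 to 1 when 1 array was left out. Over all genes, 148 were lower and 30 higher with the replicate block, and 226 to 494 were lower and 45 to 122 higher when 1 array was left out. Higher genes were 170 after quantile normalisation and 149 without null arrays 2 and 4. The cause of these changes was not tested. No label says whether the replicate numbers pair the samples. Deviations of same-numbered arrays correlated between -0.115 and 0.042, and no null array correlated best with its own number. The highest correlation of any null array with a wild-type array was 0.159. Correlations this low cannot settle whether arrays shared a batch or day. Of the companion calls, the replicate block kept Cst7, Sh2d1a, Xylt1 and Lamp2. The deposited values hold no detection calls, so for Gzma, Klrd1 and the dim companions an absent transcript and an undetected change look alike.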

Other observations

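Some companion genes outside the naming rule, chosen with their values in view, also differed in level without passing the test. Prdm1, which encodes Blimp-1, a factor of effector Treg cells, was 4.70, 5.34, 5.26 and 5.22 in null samples, against 5.45, 6.52, 5.61, 5.83 and 5.80 in wild-type samples, with no overlap (difference -0.71, limma adjusted p = 0.122). Unlike Gzmb, its value in null array 4 was not the highest of the null arrays. Slamf7, a SLAM family receptor that signals in killer cells, averaged 5.92 in null and 6.56 in wild-type samples (difference -0.65, limma adjusted p = 0.0852). Cd8b1 was highest in null array 2 (7.52), the array with the highest value of Klrd1 (4.24). Among the other members, Nkg7 (7.41) and Prf1 (5.49) also had their highest null value in that array. Gzmb (4.83) and the rest did not.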
